A study of Homo sapiens with 6 samples.

Results

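The 50 genes described here encode factors that build ribosomes: RNA polymerase I and its cofactors, the proteins of small nucleolar ribonucleoproteins (snoRNPs), abundant nucleolar proteins, and assembly factors of the small and the large ribosomal subunit. They were taken as a named list, by symbol, chosen with earlier results of these data known. All 50 were found among the 58219 gene identifiers of the deposited count files. The data are counts of polyadenylated RNA from SNU-449, an established hepatocellular carcinoma cell line, in 6 libraries. Of these, 3 came from a stable line expressing the tyrosine kinase Yes with the gatekeeper change T348I and 3 from a stable line expressing wild-type Yes (Yes WT). Both lines were treated with 100 nM dasatinib, a kinase inhibitor that acts on ABL and the SRC family, to which Yes belongs, and no library without the drug was analysed here. The comparison asks which transcripts differ under dasatinib when Yes carries the altered gatekeeper residue, which lines the drug pocket. The labels do not say whether a line is 1 clone or a pool, or whether replicates are separate cultures. An effect of the kinase therefore cannot be told apart from other differences between the lines, and the spread behind each p-value may be technical.

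Ribosomes are assembled in the nucleolus. RNA polymerase I transcribes the long precursor of the ribosomal RNAs, snoRNPs guide its methylation and pseudouridylation, and a large set of helicases, GTPases and scaffold proteins cuts, folds and matures it into the small and large subunits. Growing tumour cells, liver cancer cells among them, make many ribosomes, and genes of this pathway are classic targets of MYC, which binds E-boxes, the letters CACGTG. Polyadenylated RNA shows the messenger RNAs of these factors, not ribosomal RNA or its rate of synthesis.

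Promoter sequences are shown first, since a motif stood in the windows of many, though not most, of these genes. RefSeq promoter windows on GRCh38.p14, each from 250 bases before to 50 after an annotated gene start, were matched by symbol for 42 of the 50 genes (49 windows, since a gene can have several starts). The genes not matched were TCOF1, NOP58, NOLC1, NOL10, RRP12, BOP1, RRP1B and DDX18. The letters CACGTG, which read the same on both strands, stood in a window of 20 of the 42 genes, or 47.6%. Among all 15843 protein-coding genes with windows the share was 10.9%, and among the 10126 of them tested for expression 12.5%. Counted by window, the shares were 40.8% of 49 windows and 8.34% of 22199. These are descriptions of letters in fixed windows and show no binding.

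The 20 genes held 22 such sites, 20 of them within 50 bases of the annotated start and 15 after it. Over windows, 90.9% of the sites of these genes lay within 50 bases of the start, against 36.8% of the 2077 sites in the windows of all protein-coding genes. The 300-base window of DDX21 on the plus strand of chromosome 10 (GRCh38.p14 chr10:68956397-68956696) is shown because DDX21 had the largest rise among the genes with the motif. That of NOP10 on the minus strand (GRCh38.p14 chr15:34343087-34343386) is shown because it holds a pair of sites, as does that of UTP18, not shown. Capitals mark CACGTG, and each window is written 5′ to 3′ on the strand of its gene. A second DDX21 window, from an earlier start, did not hold the letters.
DDX21: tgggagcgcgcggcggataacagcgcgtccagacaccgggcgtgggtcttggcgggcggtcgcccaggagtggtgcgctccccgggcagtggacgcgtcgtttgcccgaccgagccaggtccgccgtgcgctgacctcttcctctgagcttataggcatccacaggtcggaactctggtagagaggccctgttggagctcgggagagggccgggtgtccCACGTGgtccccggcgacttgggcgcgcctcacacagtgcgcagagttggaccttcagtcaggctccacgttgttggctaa
NOP10: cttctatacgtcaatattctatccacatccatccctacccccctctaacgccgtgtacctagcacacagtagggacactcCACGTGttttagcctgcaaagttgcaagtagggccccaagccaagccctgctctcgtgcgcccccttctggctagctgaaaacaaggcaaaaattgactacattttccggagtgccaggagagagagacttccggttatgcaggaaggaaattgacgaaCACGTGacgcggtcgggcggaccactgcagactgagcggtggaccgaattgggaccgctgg

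To compare sites across roles, the motif is shown with 10 bases on either side for 8 more genes, 5′ to 3′ on the gene's strand, with CACGTG in capitals. On GRCh38.p14 these 26-base stretches are chr10:94362905-94362930 (minus strand) for NOC3L, chr1:19251809-19251834 (plus) for MRTO4, chr9:33473896-33473921 (minus) for NOL6, chr2:68157887-68157912 (plus) for PNO1, chr4:109815783-109815808 (plus) for GAR1, chr3:52686028-52686053 (plus) for GNL3, chr12:101280085-101280110 (plus) for UTP20 and chr19:39846358-39846383 (minus) for FBL. Beyond CACGTG the neighbouring bases varied.
NOC3L: gggacttcggCACGTGtgtcattccc
MRTO4: tcttccgccgCACGTGgattcagcgc
NOL6: catttccgccCACGTGggaagctatg
PNO1: tgcagctgcgCACGTGtttcagccgg
GAR1: gccagaggggCACGTGgcgccggtga
GNL3: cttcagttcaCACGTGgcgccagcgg
UTP20: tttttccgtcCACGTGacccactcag
FBL: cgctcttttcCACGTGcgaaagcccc

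As a whole the 50 genes were higher in Yes T348I. In the edgeR quasi-likelihood test, with Benjamini-Hochberg adjustment across the 14723 genes tested and a threshold of 0.05, 49 of the 50 were higher and none was lower. All 50 had enough counts to be tested, and GNL3L was the exception. Over all genes tested 28.0% were higher and 27.3% lower, together 55.3%, so that a call alone says little here, and the direction sets these genes beside that background. Against a minimum change of 1.2-fold, 36 of the 50 were higher and none lower, where 9.47% of all genes were higher and 12.5% lower. In 49 of the 50 the 3 Yes T348I libraries all lay above the 3 Yes WT libraries, an order found in 29.9% of all genes tested. The reverse order held for 29.7%, and for 59.5% the groups did not overlap in either direction.

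The rises were moderate in size. The median log2 fold change (Yes T348I over Yes WT) was 0.44, against -0.01 over all genes tested, and it ranged from 0.11 for GNL3L to 0.82 for NOLC1, or from 1.08-fold to 1.76-fold. Together the 50 genes took 0.910%, 0.938% and 0.934% of all gene counts in the Yes T348I libraries, against 0.676%, 0.674% and 0.672% in the Yes WT libraries. Their levels, scaled to library size (CPM), summed to 9413 ± 239 CPM in Yes T348I and 6663 ± 32.4 CPM in Yes WT (SD, n = 3 each). Every gene of the set averaged at least 19.4 CPM over the 6 libraries, and among the 7979 tested genes at or above that level 42.6% were higher by the plain test and 13.8% by the test against 1.2-fold. Of those 7979 genes 26.0% were lower by the plain test, and their median log2 fold change was 0.06. CPM here is scaled for library size and composition, as described under the processing, and the standard errors (SE) below are of the log2 fold change.

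**Figure D1:**
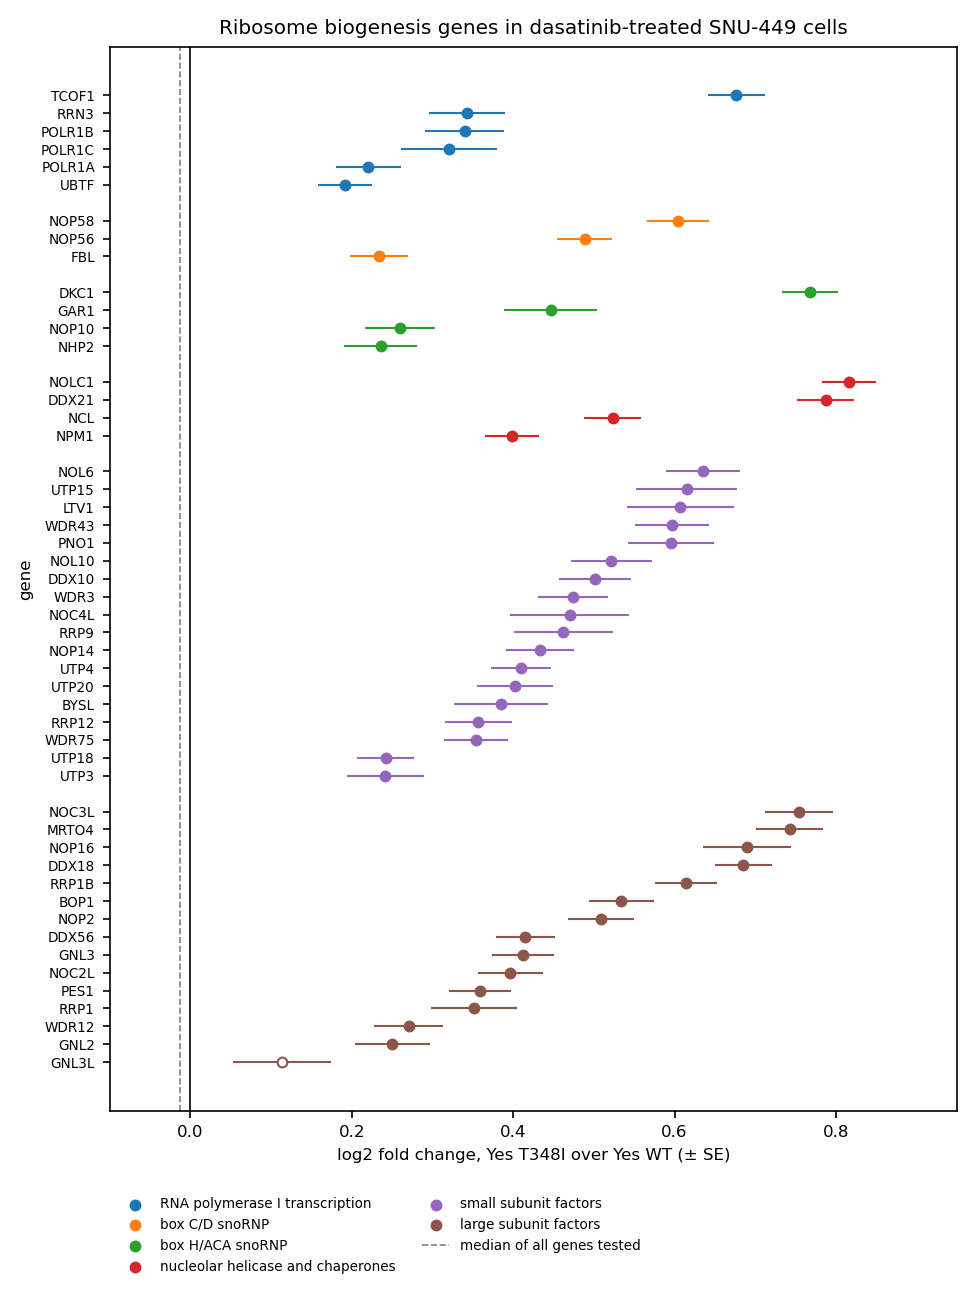
Log2 fold change of each of the 50 genes, Yes T348I over Yes WT, with its standard error as a bar; genes run down the page by role and a filled point passed the edgeR test at an adjusted p under 0.05. All points lie right of 0, from 0.11 (GNL3L, open) to 0.82 (NOLC1), while the dashed line marks the median of all genes tested at -0.01.

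**Figure D2:**
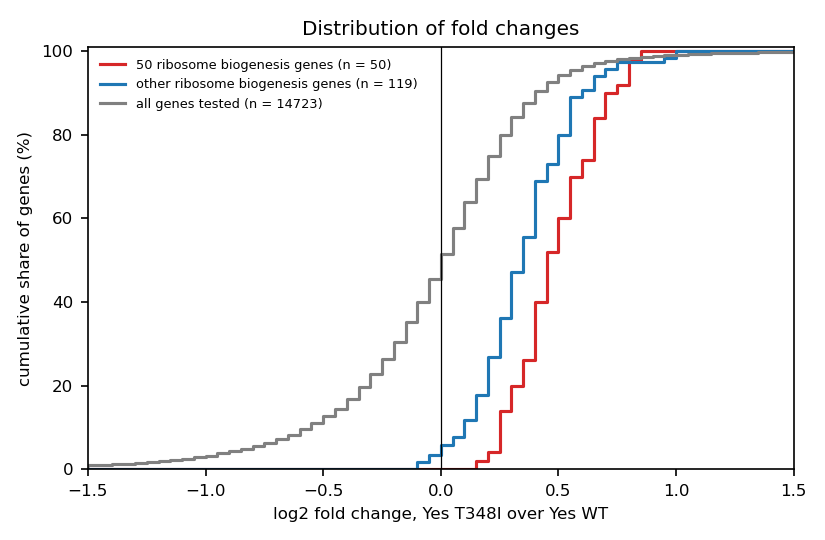
Cumulative share of genes (percent) by log2 fold change, Yes T348I over Yes WT, for the 50 genes, for 119 other ribosome biogenesis genes and for all 14723 genes tested. The medians are 0.44, 0.32 and -0.01, and the curve of the 50 genes starts above 0.

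Gene counts totalled 14392286 to 19608763 in Yes T348I libraries and 14360137 to 16117573 in Yes WT libraries. YES1, counted without distinction of native and introduced transcripts, was at 382 to 435 CPM in Yes T348I and 357 to 368 CPM in Yes WT, and its counts do not show the mutation. YES1 was higher in Yes T348I (log2 fold change 0.17, edgeR adjusted p = 9.94e-05), so the lines differ in its level too. Hepatocyte markers were mostly missing from this line: ALB, APOA1, APOB, TTR, HP and HNF4A reached no more than 10 counts in a library, and SERPINA1 and TF had 6 to 41. TF was lower in Yes T348I, at 0.785 CPM, than in Yes WT, at 2.19 CPM (edgeR adjusted p = 1.58e-04). FGB and CPS1 were better expressed and also lower, FGB at 52.3 CPM in Yes T348I and 60.5 CPM in Yes WT and CPS1 at 46.5 CPM in Yes T348I and 53.4 CPM in Yes WT. The leukocyte markers PTPRC, CD3E, CD68, LYZ and CSF1R had at most 5 counts, and the endothelial markers PECAM1, CDH5, VWF, KDR and TEK at most 16, with PECAM1 lower at 0 to 6 counts in Yes T348I and 11 to 16 in Yes WT. Of the stellate cell and fibroblast markers, DCN, LUM and PDGFRB had at most 9 counts. COL1A1 averaged 125 CPM in Yes T348I and 113 CPM in Yes WT and RGS5 145 CPM in Yes T348I and 132 CPM in Yes WT, both higher by the edgeR test. Of 4 bile duct markers, KRT19 and EPCAM were at most 1.17 CPM, while KRT7 averaged 603 CPM in Yes T348I and 309.9 CPM in Yes WT and SOX9 149 CPM in Yes T348I and 106 CPM in Yes WT, both higher. The part of these markers in the results was not tested. Genes of the mitochondrial genome took 7.29% to 9.0% of gene counts in Yes T348I and 9.73% to 10.8% in Yes WT. With those genes left out, a check added after seeing the data, the same numbers of the 50 genes were higher, 49 and 36.

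The RNA polymerase I genes of the set all rose, but all except TCOF1, described below, rose by less than most of the set. POLR1A (ENSG00000068654.15, GRCh38 chromosome 2, 86020216 to 86106155), the largest catalytic subunit, was at 102, 109 and 104 CPM in Yes T348I libraries and at 89.3, 91.1 and 89.7 CPM in Yes WT libraries. POLR1B (chromosome 2, 112541915 to 112577150), which with POLR1A forms the catalytic centre, was at 55.3, 56.3 and 54.4 CPM in Yes T348I and 44.3, 43.7 and 43.1 CPM in Yes WT. POLR1C, a subunit shared with RNA polymerase III, was at 37.1, 37.0 and 40.7 CPM in Yes T348I and 29.6, 30.0 and 32.2 CPM in Yes WT. In all 3 genes each Yes T348I library lay above each Yes WT library, and the log2 fold change came to 0.22 (SE 0.04, edgeR adjusted p = 1.07e-05) for POLR1A, 0.34 (SE 0.05, adjusted p = 1.34e-07) for POLR1B and 0.32 (SE 0.06, adjusted p = 1.21e-05) for POLR1C. None of the 3 passed the test against 1.2-fold. The exons of POLR1C overlap those of XPO5, YIPF3 and LRRC73 on the other strand, and only the reads of its own strand were counted.

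Among the factors that bring the polymerase to ribosomal DNA, TCOF1 moved most. TCOF1, which encodes treacle, a nucleolar scaffold of ribosomal RNA transcription (chromosome 5, 150357629 to 150400308), was at 226, 214 and 225 CPM in Yes T348I and 142, 135 and 139.6 CPM in Yes WT. RRN3, the initiation factor TIF-IA that links the polymerase to growth signals, was at 62.9, 63.0 and 63.5 CPM in Yes T348I and 48.6, 49.6 and 51.1 CPM in Yes WT. UBTF, the upstream binding factor that keeps ribosomal DNA open, was at 212, 211 and 206 CPM in Yes T348I and 183, 184 and 184 CPM in Yes WT. No library of one line overlapped the other in these genes, and the log2 fold changes were 0.68 (SE 0.04, edgeR adjusted p = 6.54e-20) for TCOF1, 0.34 (SE 0.05, adjusted p = 4.40e-08) for RRN3 and 0.19 (SE 0.03, adjusted p = 5.36e-06) for UBTF. TCOF1 was the only one of the 6 polymerase I genes past the 1.2-fold test. RRN3 has 2 annotated pseudogenes, and reads with more than 1 matching place stayed out of the deposited counts, so its level is uncertain. The 5 polymerase I genes with a promoter window held no CACGTG there.

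The core proteins of the box C/D snoRNPs, which guide 2′-O-methylation, rose unequally. FBL, the methyltransferase fibrillarin (chromosome 19, 39834458 to 39846414), was at 193, 179 and 190.5 CPM in Yes T348I and 159.7, 158 and 161 CPM in Yes WT. NOP56 was at 255, 253 and 258 CPM in Yes T348I and 187, 183 and 176 CPM in Yes WT. NOP58 was at 227, 260.5 and 247 CPM in Yes T348I and 164, 162 and 156 CPM in Yes WT. The groups were apart in each, with log2 fold changes of 0.23 (SE 0.04, edgeR adjusted p = 4.35e-07) for FBL, 0.49 (SE 0.03, adjusted p = 4.33e-16) for NOP56 and 0.60 (SE 0.04, adjusted p = 5.03e-17) for NOP58. SNU13, the fourth core protein and not one of the 50 genes, rose by 0.46 on the log2 scale (SE 0.04, edgeR adjusted p = 6.86e-12).

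The H/ACA snoRNPs, which guide pseudouridylation, showed the same unequal rise. DKC1, the pseudouridine synthase dyskerin (chromosome X, 154762742 to 154777689), was at 254, 265 and 267 CPM in Yes T348I and 151, 159 and 152 CPM in Yes WT, or 0.77 on the log2 scale (SE 0.03, edgeR adjusted p = 4.66e-22). Its partners changed by less: on the log2 scale GAR1 by 0.45 (SE 0.06, adjusted p = 1.26e-08), NOP10 by 0.26 (SE 0.04, adjusted p = 2.10e-06) and NHP2 by 0.24 (SE 0.05, adjusted p = 2.38e-05). NOP10, whose promoter window is printed above, was at 98.0, 95.3 and 104 CPM in Yes T348I and 80.5, 87.3 and 80.2 CPM in Yes WT. DKC1 and GAR1 passed the test against 1.2-fold, NOP10 and NHP2 did not.

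Ratios of counts within a library do not depend on the scaling between libraries and show how unequal these rises were. DKC1 had 2.64, 3.17 and 2.85 counts per NHP2 count in Yes T348I libraries, against 1.98, 2.01 and 1.96 in Yes WT libraries. NOP58 had 1.18, 1.46 and 1.30 counts per FBL count in Yes T348I and 1.03, 1.03 and 0.966 in Yes WT. TCOF1 had 1.07, 1.02 and 1.10 counts per UBTF count in Yes T348I and 0.774, 0.736 and 0.760 in Yes WT. The groups did not overlap in these 3 ratios, nor for BOP1 over WDR12 or POLR1B over POLR1A, where the mean log2 ratio differed by 0.26 and 0.12. Each of the 5 ratios, chosen after the values were seen, had p = 0.10 in a two-sided exact permutation test (adjusted p = 0.10 over the 5), which is the smallest p that 3 against 3 libraries allow. Any ratio without overlap between the groups gets that p, so the test adds nothing beyond the lack of overlap.

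The most abundant transcripts of the set encode the nucleolar proteins nucleolin and nucleophosmin. NCL (chromosome 2, 231453531 to 231483641), nucleolin, an RNA-binding protein of early ribosomal RNA processing, was at 1790.4, 1983 and 1869.7 CPM in Yes T348I and 1301, 1323 and 1302 CPM in Yes WT. NPM1 (chromosome 5, 171387116 to 171411137), nucleophosmin, a histone and ribosome chaperone, was at 1285, 1375 and 1363 CPM in Yes T348I and 1016, 1017 and 1017 CPM in Yes WT. Replicates of Yes T348I were spread more widely than those of Yes WT in both, with Yes T348I replicate 1 the lowest of its group, but the groups stayed apart. The log2 fold changes were 0.52 (SE 0.03, edgeR adjusted p = 1.61e-16) for NCL and 0.40 (SE 0.03, adjusted p = 1.22e-13) for NPM1. NPM1 has 45 annotated pseudogenes named after it, and reads that also fit these were not counted, so its level is uncertain. Other genes of the set have annotated pseudogenes too, among them DDX18 with 5, NOP56 with 3 and NCL with 2, and the same limit holds for them.

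The 2 largest rises of the set were in the same group. NOLC1 (chromosome 10, 102152176 to 102163871), the chaperone Nopp140 that carries snoRNPs, was at 496, 526 and 493 CPM in Yes T348I and 292, 291 and 277 CPM in Yes WT. DDX21 (chromosome 10, 68956128 to 68985073), an RNA helicase that couples polymerase I transcription with processing, was at 592, 661 and 628 CPM in Yes T348I and 366, 355 and 369 CPM in Yes WT. In both genes the lowest Yes T348I library was well above the highest Yes WT library. The log2 fold changes were 0.82 (SE 0.03, edgeR adjusted p = 1.76e-23) for NOLC1 and 0.79 (SE 0.03, adjusted p = 2.06e-22) for DDX21, higher than those of 98.4% and 98.3% of all genes tested. All 4 genes of this group passed the test against 1.2-fold.

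Levels between genes were compared per kilobase of annotated exon, on the scale of CPM per kilobase. NPM1 came first at 350.3 in Yes T348I and 266 in Yes WT, then NCL at 271 in Yes T348I and 189 in Yes WT, and NOP10, a very short transcript, at 179 in Yes T348I and 149 in Yes WT. NOLC1 and DDX21 followed at 127 and 125 in Yes T348I and at 72.2 and 72.3 in Yes WT. UTP15 was last at 5.69 in Yes T348I and 3.72 in Yes WT. Exon length was summed over all annotated isoforms, which understates genes with long unused exons. Across the 50 genes the log2 fold change had little relation to the level per kilobase in Yes WT (Pearson's r = 0.03, Spearman's rho = 0.02) or to exon length (r = 0.12, rho = 0.06). These correlations are across genes of the same libraries and are descriptions only.

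All 18 small subunit factors rose, with a median log2 fold change of 0.47 and a range of 0.24 to 0.63, and 16 of them passed the test against 1.2-fold. Over all genes tested 28.0% were higher by the plain test and 9.47% against 1.2-fold. Most of the 18 factors belong to the small subunit processome, the large particle that forms on the nascent ribosomal RNA. Of its proteins, NOL6 (log2 fold change 0.63, SE 0.05), UTP15 (0.61, SE 0.06) and WDR43 (0.60, SE 0.05) rose most, and the proteins WDR3, WDR75, NOL10, UTP4, UTP20, NOP14, NOC4L, RRP9 and the helicase DDX10 lay between 0.35 and 0.52. NOL6 was at 75.2, 74.8 and 74.2 CPM in Yes T348I and 47.9, 49.1 and 47.3 CPM in Yes WT, with little spread within either line. UTP18 and UTP3 both had 0.24 (SE 0.04 and 0.05, edgeR adjusted p = 1.64e-07 and 3.63e-05) and did not pass the test against 1.2-fold.

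Of the later small subunit factors, LTV1 and PNO1, which act on the pre-40S particle, had log2 values of 0.61 (SE 0.07) and 0.60 (SE 0.05), while BYSL and RRP12 rose by 0.38 (SE 0.06) and 0.36 (SE 0.04). LTV1 shares exon sequence with 2 other annotated genes on its strand, and reads that fit both were not counted. BYSL had 54.0, 49.99 and 56.2 CPM in Yes T348I and 38.6, 38.3 and 45.9 CPM in Yes WT, with Yes WT replicate 3 closest to the Yes T348I libraries. The small subunit factors held CACGTG in a promoter window in 10 of 16 matched genes, the largest share of the 6 role groups.

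**Figure D3:**
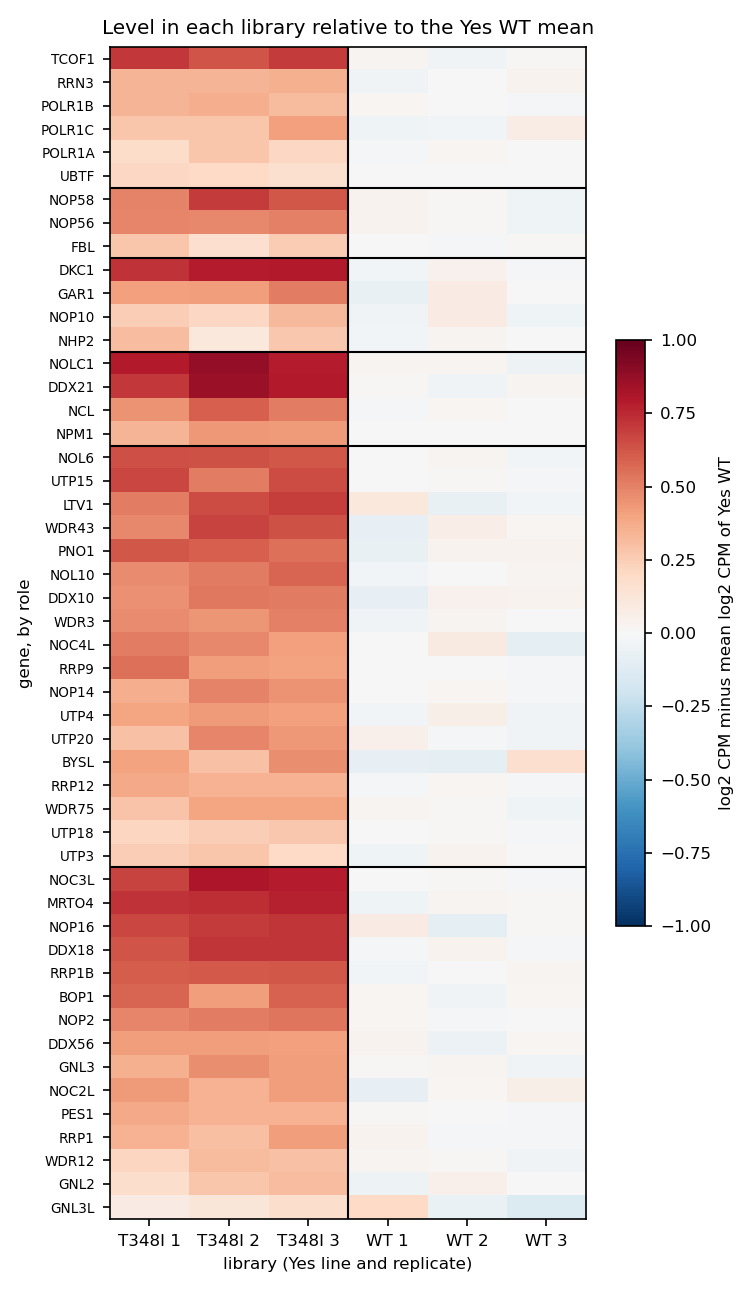
Level of each of the 50 genes in each library, as log2 CPM minus the mean log2 CPM of the Yes WT libraries (red higher, blue lower), with Yes T348I libraries left of Yes WT libraries and genes grouped by role in the same order as the plot of fold changes. The 3 Yes T348I columns are red throughout, and GNL3L, in the last row, is the gene whose Yes WT replicate 1 lies above all 3 Yes T348I values.

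Of the 15 large subunit factors 14 rose, with a median log2 fold change of 0.41, and 11 passed the test against 1.2-fold. NOC3L (chromosome 10, 94333226 to 94362959), a partner of NOC2L in early pre-60S particles, was at 112, 123 and 122 CPM in Yes T348I and 70.5, 70.8 and 69.9 CPM in Yes WT. MRTO4 (chromosome 1, 19251539 to 19260128), which holds the place of the ribosomal stalk protein, was at 113, 114 and 116 CPM in Yes T348I and 66.5, 69.6 and 69.0 CPM in Yes WT. NOP16 (chromosome 5, 176383938 to 176388975), a nucleolar protein of the pre-60S particle, was at 50.7, 52.0 and 52.5 CPM in Yes T348I and 33.8, 29.9 and 32.2 CPM in Yes WT. In each of the 3 the lines did not overlap, and the log2 fold changes were 0.75 (SE 0.04, edgeR adjusted p = 5.64e-19) for NOC3L, 0.74 (SE 0.04, adjusted p = 3.49e-19) for MRTO4 and 0.69 (SE 0.05, adjusted p = 3.24e-14) for NOP16. NOP16 overlaps exons of HIGD2A and ARL10 on the other strand, and opposite-strand reads at the locus came to 66.2% of its own. With the unstranded counts its log2 fold change was 0.73.

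The helicase DDX18 (log2 fold change 0.69, SE 0.04), RRP1B (0.61, SE 0.04), BOP1 (0.53, SE 0.04) and the RNA methyltransferase NOP2 (0.51, SE 0.04) followed. NOP2 overlaps 1 other annotated gene on its strand. The complex of PES1, BOP1 and WDR12, needed to process the precursor of the large subunit RNAs, rose unequally, by 0.36 (SE 0.04) for PES1, 0.53 for BOP1 and 0.27 (SE 0.04, edgeR adjusted p = 7.66e-07) for WDR12. The helicase DDX56, NOC2L and RRP1 lay between 0.35 and 0.41.

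The nucleolar GTPases differed among themselves. GNL3, nucleostemin, rose by 0.41 on the log2 scale (SE 0.04, edgeR adjusted p = 2.98e-12) and GNL2 by 0.25 (SE 0.05, adjusted p = 1.37e-05). GNL3L (chromosome X, 54530211 to 54561071), a close relative of nucleostemin, was at 45.7, 47.0 and 48.9 CPM in Yes T348I and 49.6, 41.3 and 39.2 CPM in Yes WT. Yes WT replicate 1 was the highest of the 6, and the difference, 0.11 on the log2 scale (SE 0.06, edgeR adjusted p = 0.11), did not pass. Without that library it was 0.23 (adjusted p = 0.0020), and the difference between GNL3L and GNL3 was not tested.

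Of the 50 genes, 7 hold annotated snoRNA genes within their bounds on the same strand: GNL3 with 6, NOP56 with 5, NOP58 with 4, NCL and WDR43 with 3 each, DKC1 with 2 and POLR1C with 1. These 7 had a median log2 fold change of 0.52, and the other 43 had 0.41, ranges that overlapped (0.32 to 0.77 and 0.11 to 0.82). The snoRNAs themselves carry no poly(A) tail and were not analysed here. The 50 genes lie on 20 chromosomes, with 10 of them on chromosome 2 and 5 on chromosome 5.

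Fold changes of genes with and without the E-box overlapped. The 20 genes with CACGTG in a window had a median log2 fold change of 0.44 (range 0.23 to 0.79), and the 22 matched genes without it had 0.38 (0.11 to 0.77). The genes without a matched window are in neither group, and they ranged from 0.36 (RRP12) to 0.82 (NOLC1, the largest rise of the set). Of the other letters searched on both strands, the ETS-type CCGGAAGT stood in windows of 12 of the 42 genes (28.6%, against 6.98% of all protein-coding genes), the SP1-type GGGCGG in 78.6% (64.3%), CCAAT in 50% (42.1%), the NRF1-type GCATGCGC in 7.14% (4.89%) and TATAAA in 4.76% (12.4%). A CGCG-centred palindrome, also searched, stood in 2.38% (0.726%). Among tested genes the shares of CCGGAAGT and GGGCGG were 10.2% and 77.8%. Among genes past the 1.2-fold test in this comparison, CACGTG stood in windows of 13.8% of those higher and 11.6% of those lower. Over all 10126 tested genes with windows it was 12.5%.

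**Figure D4:**
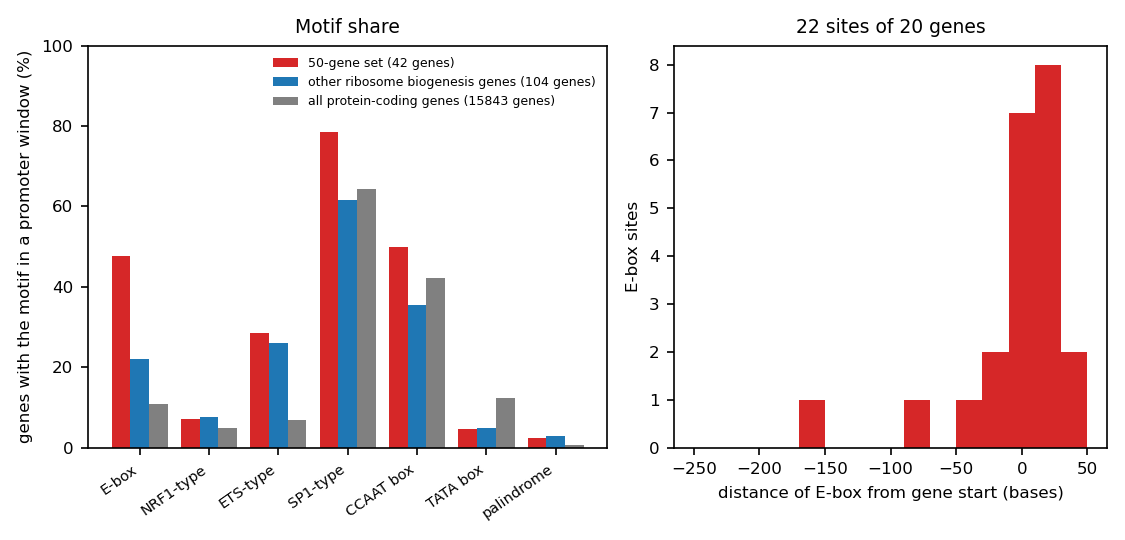
Left, percent of genes with a motif in a promoter window, for the 42 matched genes of the 50, for 104 other ribosome biogenesis genes and for all 15843 protein-coding genes with windows. Right, number of CACGTG sites by distance from the annotated gene start in bases (22 sites of 20 genes), most of them within 50 bases of it; the E-box share is 47.6%, 22.1% and 10.9% in the 3 sets.

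Ribosome biogenesis genes outside the set moved the same way, by less. From a list of 121 further genes, set down by role with earlier results of these data known, 119 were tested. Of these 100 were higher and 1 lower (edgeR adjusted p under 0.05), 48 were higher and none lower against 1.2-fold, and the median log2 fold change was 0.32. Over all genes tested 28.0% were higher and 27.3% lower, and 9.47% were higher against 1.2-fold. Among tested genes averaging at least 19.4 CPM, 42.6% were higher, and 13.8% against 1.2-fold. By role, 3 of 15 polymerase I genes, 3 of 10 snoRNP genes and 5 of 15 exosome and exonuclease genes were higher against 1.2-fold. For small and large subunit factors it was 19 of 38 and 18 of 41. POLR2F and PWP2 had too few counts to be tested. CACGTG stood in windows of 23 of 104 matched genes, or 22.1%.

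Among 15 further polymerase I subunits and factors tested 10 were higher and none lower, with a median log2 fold change of 0.17. POLR1G, a subunit of the polymerase I initiation module, averaged 120.4 ± 2.53 CPM in Yes T348I and 60.4 ± 0.692 CPM in Yes WT (SD, n = 3 each), or 0.996 on the log2 scale (SE 0.04, edgeR adjusted p = 2.26e-23), more than any of the 50 genes. POLR1E and POLR1F, further polymerase I subunits, rose by 0.52 (SE 0.06) and 0.51 (SE 0.05). Other subunits moved less. POLR1H, POLR2E, POLR2K and POLR2L were higher by 0.13 to 0.25, not past 1.2-fold. POLR1D and POLR2H did not pass, at 0.08 (SE 0.05, edgeR adjusted p = 0.23) and 0.04 (SE 0.06, adjusted p = 0.56). The promoter selectivity factor subunits TAF1B and TAF1C did not pass in the edgeR test, at 0.10 (SE 0.06, adjusted p = 0.21) and -0.10 (SE 0.05, adjusted p = 0.12) on the log2 scale. TAF1A and TAF1D, of the same factor, were higher, by 0.26 (edgeR adjusted p = 0.0030) and 0.11 (adjusted p = 0.025).

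Of 10 snoRNP assembly and core genes 7 were higher, among them SNU13, given above, and the assembly factors ZNHIT6 (log2 fold change 0.38, SE 0.06) and RUVBL1 (0.38, SE 0.04). NOP53, a nucleolar factor of large subunit maturation that was listed with them, was the 1 gene that fell, to 133 ± 8.04 CPM in Yes T348I, against 146 ± 1.61 CPM in Yes WT (SD, n = 3 each; log2 fold change -0.13, SE 0.04, edgeR adjusted p = 0.0046). Without Yes T348I replicate 2, the lowest library, the NOP53 difference was -0.08 (edgeR adjusted p = 0.071) and did not pass.

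Of 38 further small subunit factors 37 were higher, with a median of 0.36, including IMP4 (0.54, SE 0.04) and the dimethyltransferase DIMT1 (0.54, SE 0.07). DDX47 had the largest value, 0.92 (SE 0.29, edgeR adjusted p = 0.0067), at only 1.53 CPM in Yes T348I and 0.800 CPM in Yes WT, and it overlaps APOLD1 on its strand. Of 41 further large subunit factors 36 were higher and none lower, with a median of 0.35. The GTPase GTPBP4 averaged 454 ± 23.8 CPM in Yes T348I and 234 ± 3.69 CPM in Yes WT (SD, n = 3 each; log2 fold change 0.95, SE 0.04), and EBNA1BP2 and NIFK rose by 0.75 (SE 0.04) and 0.70 (SE 0.05). Of 15 genes of the RNA exosome and exonucleases, which trim ribosomal RNA and also degrade other RNAs, 10 were higher and none lower, with EXOSC3, EXOSC9 and EXOSC2 at 0.51, 0.49 and 0.49, while XRN2, the main nuclear 5′ exonuclease, had -0.02 (SE 0.03, adjusted p = 0.66). EXOSC3 overlaps another annotated gene on its strand.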

How the data were processed

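The authors deposited raw read counts per gene, 1 file per library, with unstranded, forward-strand and reverse-strand columns. Per the submitters' processing notes CASAVA 1.8.2, Trimmomatic 0.35, STAR 2.5.1b and GRCh38 were used, without stated roles; no source names the annotation release. The kit keeps strand per the labels' protocols, and the reverse-strand column was used: the forward column held 6.13% to 6.59% of its total. The 4 lines that name no gene were not counted in depth; reads on no feature were 6.37% to 7.87% of uniquely mapped reads.

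The main test used edgeR 4.0.16 under R 4.3.3: filterByExpr (minimum count 10), TMM scaling, quasi-likelihood F-test without covariate, Benjamini-Hochberg adjustment over all genes tested, threshold 0.05, and glmTreat against 1.2-fold. The test was also run on simulated counts with 200 changed genes, where 8147 genes were called in the real data. That run therefore does not show the error rate of the test in these data. Alternatives used DESeq2 1.42.0 and limma 3.58.1. Gene positions and exon lengths came from GENCODE release 29, symbols from a table of gene names.

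The genes, role lists and other pathway genes were chosen with earlier results of these data known. Values in every library are given for 12 genes picked by role and for the 6 largest rises; a few more (among them NOL6, BYSL and GNL3L) were named after their values were seen. No 2 libraries agreed within counting noise (chi-square per degree of freedom at least 1.48).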

Additional observations from a re-analysis of the deposited data

How the results depend on the processing

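All 49 calls among the 50 genes kept their direction and passed under each of 15 alternatives: other scalings, no low-count filter, DESeq2, limma-voom (neither with the 1.2-fold test), the unstranded column, the replicate block, leaving out mitochondrial genes (added after seeing the data) and leaving out each library. GNL3L passed under 3: no low-count filter (log2 fold change 0.14, adjusted p = 0.049), without Yes T348I replicate 1 (0.15, adjusted p = 0.043) and without Yes WT replicate 1 (0.23, adjusted p = 0.0020). The number past 1.2-fold was 32 to 38, against 36. The median log2 fold change of the 50 genes, 0.44, was 0.40 with library size only, 0.40 with upper quartile factors and 0.47 with no low-count filter, and 0.43 to 0.46 leaving out 1 library. The first 2 scalings lowered the median of all genes too, to -0.05. Of the 121 other genes 93 to 102 were higher (100 as reported). The 1 lower became 3 with library size only, 4 with upper quartile factors and 0 to 2 leaving out 1 library (none without Yes T348I replicate 2; NOP53 and TAF1C without Yes T348I replicate 3). Same-numbered libraries did not deviate together (correlations of -0.04, 0.00 and -0.02), so the numbers do not pair them. With the replicate number as a block the 50 genes gave 49 and 36 higher with a median of 0.44, and the other genes 99, so no call among the 50 changed. Depth limits little here, since each of the 50 genes averaged at least 19.4 CPM.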
